A study of Homo sapiens with 11 samples.

Results

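The miR-30 family was followed through 2 regimens of oxidative stress in differentiating neuron-like cells. Its 8 members here are hsa-miR-30a-5p, hsa-miR-30b-5p, hsa-miR-30c-5p, hsa-miR-30d-5p, hsa-miR-30e-5p, hsa-miR-30a-3p, hsa-miR-30d-3p and hsa-miR-30e-3p, taken by name from 2576 mature miRNAs counted in every library. The 3 remaining arms of the family in the count tables, hsa-miR-30b-3p, hsa-miR-30c-1-3p and hsa-miR-30c-2-3p, are given beside them. Small RNA was sequenced from SH-SY5Y cells, a human neuroblastoma line derived from the SK-N-SH line, all of which had been differentiated with 10 µM all-trans retinoic acid (ATRA) for 7 days. In co-treatment, 10 µM hydrogen peroxide (H2O2) was present during the 7 days of ATRA (AH, n = 3) and was compared with ATRA alone (AH-con, n = 3). In pre-treatment, 10 µM H2O2 was given for 72 h and removed before ATRA (HA, n = 3), and was compared with its own ATRA control (HA-con, n = 2, after the submitters set aside 1 outlying library). The libraries are described as biological replicates of 1 cell line, so the p-values measure the spread between cultures of that line.

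miRNAs are short RNAs cut from a hairpin precursor, which leaves a mature strand from its 5p arm and another from its 3p arm. A mature strand loaded into an Argonaute protein pairs with messenger RNAs mainly through its seed, bases 2 to 8, and lowers their translation and stability. The 5p strands of the miR-30 family share a seed and therefore many predicted targets. In neural and other cells the family is known for repression of the autophagy gene BECN1 and, for miR-30a-5p, of the neurotrophin gene BDNF.

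Mature sequences from RefSeq (GRCh38.p14) were matched for 5 of the 8 members and for 7 of the 11 arms, and those that show how the strands resemble each other are given 5′ to 3′ with the seed in capitals.
hsa-miR-30a-5p: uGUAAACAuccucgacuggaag
hsa-miR-30e-5p: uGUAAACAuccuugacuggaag
hsa-miR-30c-5p: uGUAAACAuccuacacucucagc
hsa-miR-30a-3p: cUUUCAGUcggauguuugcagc
hsa-miR-30e-3p: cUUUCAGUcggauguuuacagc
hsa-miR-30c-1-3p: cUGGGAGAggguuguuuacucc
hsa-miR-30c-2-3p: cUGGGAGAaggcuguuuacucu
The 3 matched 5p strands carried the seed GUAAACA. Counting from 1 at the 5′ end, hsa-miR-30a-5p and hsa-miR-30e-5p differed by C13U alone, and hsa-miR-30a-3p and hsa-miR-30e-3p by G18A alone. hsa-miR-30c-5p differed from hsa-miR-30a-5p at 5 of 22 bases, all outside the seed. The 3p strands of miR-30a and miR-30e shared the seed UUUCAGU, and those of the miR-30c hairpins the seed UGGGAGA. With 1 base between them, reads of the miR-30a and miR-30e strands can be exchanged by a sequencing error at that base. Each of these counts is uncertain to that extent. The strands of miR-30b and miR-30d were not matched, so whether their reads can be exchanged in the same way was not checked.

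The hairpins lie in pairs in the genome. On GRCh37, MIR30E (chr1:41220027-41220118, plus strand) and MIR30C1 (chr1:41222956-41223044, plus strand) start 2929 bases apart, each within an intron of the protein-coding gene NFYC on the same strand. MIR30A (chr6:72113254-72113324, minus strand) lies within an intron of the long non-coding gene LINC00472, and MIR30C2 (chr6:72086663-72086734, minus strand) overlaps an exon of that gene, with 26591 bases between their starts. MIR30B and MIR30D start 4356 bases apart. hsa-miR-30c-5p is the same molecule from both MIR30C1 and MIR30C2, whereas their 3p strands differ and were counted separately.

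Library totals ranged from 5343953 to 8927582 counts. HA-con 1 stood apart from the other libraries: the Pearson correlation of log2 CPM between the HA-con libraries was 0.908, against 0.961 to 0.982 in the other replicate pairs, and no pair agreed within sampling noise. Its summed white blood cell markers reached 121 CPM, against 10.5 to 23.3 CPM in the other 10 libraries (4 of 4 markers were detected), with 540 counts of hsa-miR-223-3p there and 3 to 35 elsewhere. Of the 4 epithelial markers, hsa-miR-205-5p alone was higher there than in every other library (1007 counts, against 10 to 32), which took the summed list to 209 CPM, against 53.9 to 84.4 CPM elsewhere. The pre-treatment levels are therefore also set against each control alone. Of the neural markers, hsa-miR-128-3p and hsa-miR-375 were abundant (summed neural list 4020 to 6950 CPM). hsa-miR-7-5p had 1731 to 4966 counts a library and hsa-miR-218-5p 247 to 1162. hsa-miR-124-3p was at 0 to 7 counts in every library, and hsa-miR-9-5p had 317 counts over all 11. hsa-miR-9-5p comes from 3 hairpins, and how reads that fit several hairpins were counted is not given, so its count need not be its level.

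The members differed widely in measured level, with hsa-miR-30d-5p highest and hsa-miR-30c-5p lowest. hsa-miR-30c-5p comes from 2 hairpins, and how reads that fit several hairpins were counted is not given, so its count need not be its level. Levels are given as CPM, counts set relative to the size of the library, with TMM scaling over all 11 libraries, which needs no division by length because a read covers the whole mature strand. In AH-con the order was hsa-miR-30d-5p (11167 ± 2049 CPM, SD, n = 3), hsa-miR-30e-5p (7767 ± 180), hsa-miR-30b-5p (7025 ± 3969), hsa-miR-30e-3p (2140 ± 742), hsa-miR-30a-5p (1234 ± 35.1), hsa-miR-30a-3p (466 ± 207), hsa-miR-30d-3p (142 ± 44) and hsa-miR-30c-5p (12.1 ± 6.03). Of the neighbours in that order, only hsa-miR-30e-5p and hsa-miR-30b-5p overlapped between libraries. hsa-miR-30d-5p was first and hsa-miR-30e-5p second in all 4 groups by mean, and hsa-miR-30a-3p, hsa-miR-30d-3p and hsa-miR-30c-5p were the last 3 in all 4. The 8 members together took 2.32% to 3.56% of the counts of the co-treatment libraries and 3.36% to 4.61% of those of pre-treatment.

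**Figure D1:**
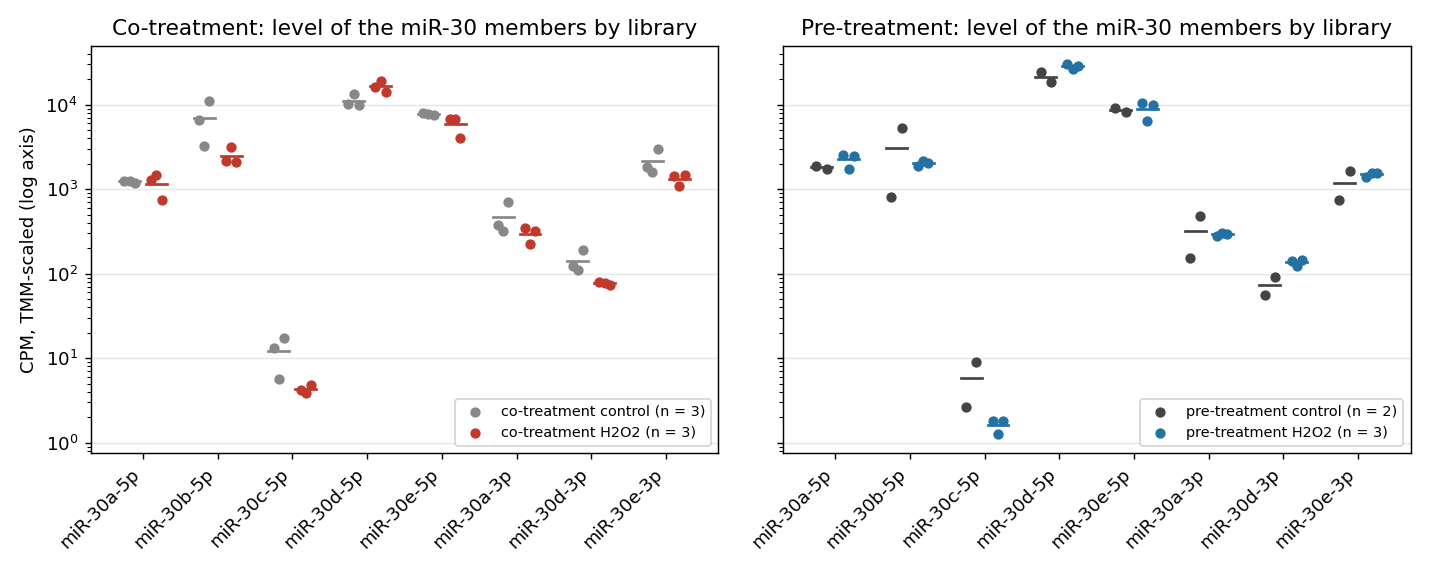
TMM-scaled CPM (log axis) of the 8 members in each library, co-treatment on the left and pre-treatment on the right, where points are libraries and lines are group means. hsa-miR-30b-5p ranged from 3264 to 11174 CPM in AH-con and from 799 to 5289 CPM in HA-con, while its AH libraries lay between 2087 and 3152 CPM and its HA libraries between 1869 and 2137 CPM.

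Co-treatment was compared with its controls to ask which members respond to H2O2 during differentiation. hsa-miR-30b-5p, hsa-miR-30c-5p and hsa-miR-30d-3p were down-regulated and no member was up-regulated (edgeR exact test, FDR under 0.05 and |log2FC| above 0.6, Benjamini-Hochberg adjusted over 790 miRNAs). The 3 of 8 members called stand beside a background of 26.2% of all miRNAs tested, and 15.6% called as lower with H2O2. By the quasi-likelihood test of edgeR the same 3 members passed, against 22.9% of all. With the low-count filter required in all libraries, hsa-miR-30d-5p was called too, as up-regulated (log2FC 0.70, edgeR exact test, adjusted p = 0.0355). The median log2FC of the members was -0.67, beside -0.04 over all 790 miRNAs. The log2FC was below 0 in 7 of the 8 members and in 404 of the 790 miRNAs. These are bulk libraries, in which a loss from some cells and a smaller loss from every cell cannot be told apart.

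hsa-miR-30b-5p, a 5p strand that was among the 3 most abundant members, was at 6637, 3264 and 11174 CPM in AH-con and at 2156, 3152 and 2087 CPM in AH. Every AH library lay below every control, but control 2 exceeded AH 2 by little, and the controls themselves spread more than the treated libraries. Its log2FC was -1.51 (SE 0.325, edgeR exact test, adjusted p = 0.000456).

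hsa-miR-30c-5p had the lowest counts of the members, at 13.3, 5.61 and 17.5 CPM in AH-con (86, 46 and 124 counts) and at 4.2, 3.85 and 4.79 CPM in AH (38, 23 and 36 counts). The groups did not overlap, and control 2 was again the lowest control. Its log2FC was -1.5 (SE 0.379, edgeR exact test, adjusted p = 0.00258), which rests on far fewer counts than that of any other member.

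hsa-miR-30d-3p, the less abundant strand of its hairpin, was at 122, 111 and 192 CPM in AH-con and at 79.9, 77.9 and 73.2 CPM in AH. All 3 treated libraries lay close together below the controls. Its log2FC was -0.89 (SE 0.274, edgeR exact test, adjusted p = 0.0121).

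The opposite strand of that hairpin, hsa-miR-30d-5p, is the leading 5p strand of the family, and it was at 10193, 13521 and 9787 CPM in AH-con and at 16244, 18928 and 14185 CPM in AH. The treated libraries were all above the controls on this scale, though the groups overlapped in the scaling used for the test. Its log2FC of 0.52 (SE 0.229) did not pass the test (edgeR exact test, adjusted p = 0.142).

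The 3p strands of miR-30a and miR-30e, which share a seed, had close estimates. hsa-miR-30e-3p was at 1831, 1601 and 2986 CPM in AH-con and 1420, 1104 and 1484 CPM in AH, with a log2FC of -0.69 (SE 0.264, edgeR exact test, adjusted p = 0.0613). hsa-miR-30a-3p was at 376, 319.8 and 702 CPM in AH-con and 346, 226 and 319 CPM in AH, with a log2FC of -0.66 (SE 0.303, edgeR exact test, adjusted p = 0.106). Neither passed, and in both AH-con 3 was by far the highest library. Their 5p strands did not pass either. hsa-miR-30e-5p had a log2FC of -0.42 (SE 0.244, edgeR exact test, adjusted p = 0.252) and hsa-miR-30a-5p of -0.11 (SE 0.276, edgeR exact test, adjusted p = 0.83).

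In 5 of the 8 members, hsa-miR-30b-5p, hsa-miR-30c-5p, hsa-miR-30e-5p, hsa-miR-30d-3p and hsa-miR-30e-3p, the groups did not overlap in the scaling of this comparison, where 41.6% of all miRNAs tested did not. The call of hsa-miR-30d-3p was lost without AH-con 1, AH-con 3, AH 1 or AH 3 (edgeR exact test, adjusted p between 0.0528 and 0.172), in 4 of the 6 cases, and that of hsa-miR-30c-5p without AH-con 3. AH-con 3 was the highest control for all 3 members called. Without it hsa-miR-30b-5p alone was called (log2FC -1.0, edgeR exact test, adjusted p = 0.0239), while hsa-miR-30c-5p (-1.12, adjusted p = 0.0741) and hsa-miR-30d-3p (-0.58, adjusted p = 0.172) were not. Without AH-con 2, the lowest control for the same 3, hsa-miR-30a-3p (-0.88, adjusted p = 0.0261) and hsa-miR-30e-3p (-0.87, adjusted p = 0.0167) passed as well. None of the 3 was called when all 11 libraries shared 1 quasi-likelihood fit of edgeR, with adjusted p-values of 0.0733, 0.0516 and 0.0644 for hsa-miR-30b-5p, hsa-miR-30c-5p and hsa-miR-30d-3p.

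Among the remaining 3p arms, 0 of 3 were called by either edgeR test in co-treatment. By the exact test 0 of 3 had an unadjusted p under 0.05, beside 317 of 790 miRNAs. hsa-miR-30b-3p, from the same hairpin as the down-regulated hsa-miR-30b-5p, was at 15.3, 14.5 and 16.1 CPM in AH-con and 12.3, 18.7 and 15.7 CPM in AH (log2FC -0.01, SE 0.282). hsa-miR-30c-1-3p and hsa-miR-30c-2-3p, from the hairpins that give hsa-miR-30c-5p, had log2FC values of 0.16 (SE 0.267) and 0.48 (SE 0.271). For context, the exact test called 0 of 9 members of the let-7 family (median log2FC -0.01), with 1 at an unadjusted p under 0.05 and 0 called by the quasi-likelihood test, 1 of 2 of miR-26 and 2 of 3 of miR-29 (median -1.14), all down-regulated.

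**Figure D2:**
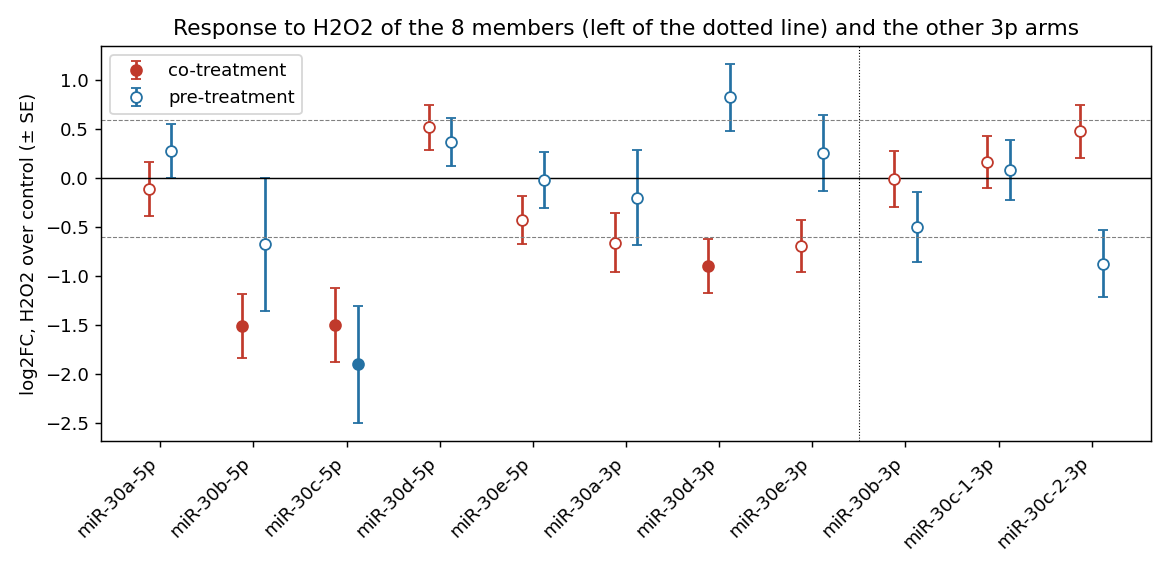
log2FC of H2O2 over control (± SE of the quasi-likelihood fit) for the 8 members and the 3 other 3p arms, where filled points passed the exact test and dashed lines mark an absolute log2FC of 0.6. Filled points are hsa-miR-30b-5p, hsa-miR-30c-5p and hsa-miR-30d-3p in co-treatment and hsa-miR-30c-5p in pre-treatment, and hsa-miR-30d-3p is at -0.89 in co-treatment and 0.83 in pre-treatment.

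Pre-treatment was compared with its controls to ask which members differ after differentiation that followed an earlier exposure to H2O2. Only hsa-miR-30c-5p passed, as down-regulated, so that 1 of 8 members stood beside a background of 15.3% of 868 miRNAs called and 9.91% called as lower (edgeR exact test, same thresholds). The median log2FC of the members was 0.12, beside -0.19 over all 868. By the quasi-likelihood test of edgeR no member passed, against 1.96% of all miRNAs. By that test the unadjusted p was 0.0158 for hsa-miR-30c-5p (adjusted p = 0.103) and 0.0459 for hsa-miR-30d-3p (adjusted p = 0.162). The number of all miRNAs with an unadjusted p under 0.05 by that test was not taken. By the exact test 1 of 8 members (hsa-miR-30c-5p) had an unadjusted p under 0.05, beside 248 of 868 miRNAs. In 3 of 8 members, hsa-miR-30c-5p, hsa-miR-30d-5p and hsa-miR-30d-3p, the groups did not overlap, where 46.0% of all did not. Markers of other cell types also differed between these groups. hsa-miR-122-5p, a liver marker, was at 99.3 and 235 CPM in HA-con and 547 to 786 CPM in HA. The 4 red blood cell markers summed to 2.16 and 3.43 CPM in HA-con and 10.4 to 14.5 CPM in HA. In each library 2 to 4 of them were above 3 counts. The higher sum lay in hsa-miR-451a (6 and 6 counts in HA-con, 43 to 49 in HA) and hsa-miR-144-5p (1 and 10, 28 to 55). hsa-miR-486-5p (8 and 8, 3 to 10) and hsa-miR-144-3p (0 and 1, 0 to 10) overlapped between the groups. The neural markers went both ways. hsa-miR-375 had 19808 and 37792 counts in HA-con and 12427 to 14208 in HA. hsa-miR-128-3p had 8016 and 8556 counts in HA-con and 13642 to 14814 in HA. The counts of the other neural markers did not separate the groups. The part of these markers in the results for the members was not tested.

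hsa-miR-30c-5p was at 2.69 and 9.04 CPM in HA-con (19 and 61 counts) and at 1.8, 1.26 and 1.83 CPM in HA (15, 9 and 13 counts). All 3 treated libraries were below both controls, though control 1 was close to them. Its log2FC was -1.90 (SE 0.601, edgeR exact test, adjusted p = 0.0409, and 0.103 by the quasi-likelihood test). Without HA-con 2 the log2FC was -0.46, short of the threshold of 0.6 in size, and without HA-con 1 it was -2.43. The call was also lost without any 1 of the HA libraries (edgeR exact test, adjusted p of 0.204 to 0.296) and without the low-count filter (adjusted p = 0.118).

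hsa-miR-30b-5p was at 799 and 5289 CPM in HA-con and at 1869, 2137 and 2065 CPM in HA. The 3 treated libraries lay together between the controls, which differed from each other by more than any treated library differed from either in CPM. Its log2FC was -0.67 (SE 0.679, edgeR exact test, adjusted p = 0.531), and the sign turned with the control, at -1.37 without HA-con 1 and 1.59 without HA-con 2.

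hsa-miR-30d-5p was at 24090 and 18625 CPM in HA-con and 29942, 26502 and 28499 CPM in HA, and hsa-miR-30d-3p at 56.2 and 92.1 CPM in HA-con and 140.5, 125 and 145 CPM in HA. Both strands of this hairpin were above both controls in every treated library. Neither passed the edgeR exact test, with a log2FC of 0.37 (SE 0.244, adjusted p = 0.489) for hsa-miR-30d-5p and 0.83 (SE 0.342, adjusted p = 0.201) for hsa-miR-30d-3p. Against 1 control at a time, the log2 ratio of the mean HA CPM to that of the control depended on the control. It was 0.23 (HA-con 1) and 0.60 (HA-con 2) for hsa-miR-30d-5p, and 1.28 and 0.57 for hsa-miR-30d-3p.

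The remaining members had a log2FC of 0.28 (SE 0.271) for hsa-miR-30a-5p, -0.02 (SE 0.29) for hsa-miR-30e-5p, -0.20 (SE 0.485) for hsa-miR-30a-3p and 0.26 (SE 0.389) for hsa-miR-30e-3p. The 3p strands of miR-30a and miR-30e depended on the control in the same way as hsa-miR-30b-5p did. hsa-miR-30a-3p was at 154 and 487 CPM in HA-con and 279 to 307 CPM in HA, and hsa-miR-30e-3p at 737 and 1658 CPM in HA-con and 1382 to 1572 CPM in HA, so in both the treated libraries fell between the controls. Of the other 3p arms, hsa-miR-30c-2-3p was at 35.2 and 54.7 CPM in HA-con and 22.2, 27.5 and 26.7 CPM in HA, lower in every treated library, with a log2FC of -0.87 (SE 0.343, edgeR exact test, adjusted p = 0.174).

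**Figure D3:**
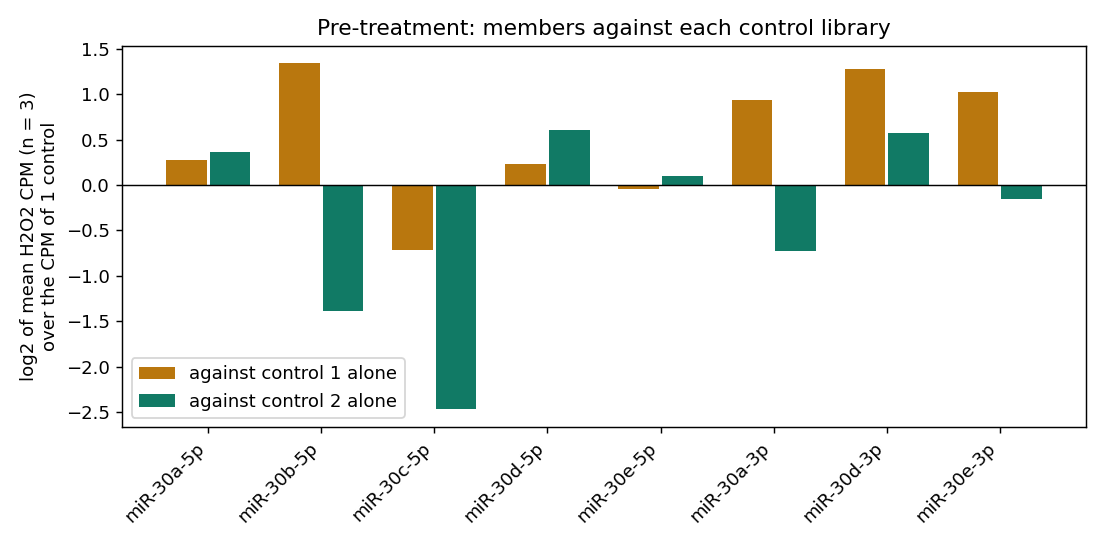
log2 of the mean HA CPM (n = 3) over the CPM of 1 HA-con library at a time, for the 8 members. Bars point opposite ways for hsa-miR-30b-5p (1.34 against control 1 and -1.39 against control 2), hsa-miR-30a-3p (0.94 and -0.73) and hsa-miR-30e-3p (1.02 and -0.15), and the same way for hsa-miR-30c-5p (-0.72 and -2.47), hsa-miR-30d-5p (0.23 and 0.60), hsa-miR-30d-3p (1.28 and 0.57) and hsa-miR-30a-5p (0.28 and 0.36), with hsa-miR-30e-5p near 0 (-0.045 and 0.095).

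Whether the response differed between regimens was tested as an interaction in 1 quasi-likelihood fit of edgeR to all 11 libraries, in which 27.3% of 945 miRNAs passed. Among the members hsa-miR-30d-3p alone passed: its log2FC was -0.88 in co-treatment and 0.88 in pre-treatment in that fit, a difference of 1.76 (SE 0.437, quasi-likelihood test, adjusted p = 0.00933). The HA-con libraries were lower than the AH-con libraries for this strand (56.2 and 92.1 against 111 to 192 CPM), while the HA libraries (125 to 145 CPM) overlapped AH-con. The difference lay between 1.46 and 2.18 when any of the 11 libraries was left out. It stayed past the threshold where that library came from AH-con, AH or HA. Without an HA-con library a lone control remains, so only the size of the difference is given there. The difference missed the FDR threshold when libraries were blocked by replicate number, a fit given below. Whether those numbers pair libraries could not be decided. hsa-miR-30e-3p had a difference of 1.00 (SE 0.467, quasi-likelihood test, adjusted p = 0.126), and hsa-miR-30b-5p of 0.92 (SE 0.759, adjusted p = 0.382). Outside the 8, hsa-miR-30c-2-3p differed in the other direction, by -1.33 (SE 0.415, quasi-likelihood test, adjusted p = 0.0278). Regimen and any batch between the experiments cannot be told apart in this design.

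The composition of the 5p reads does not depend on scaling between libraries. In co-treatment hsa-miR-30d-5p made up 39.1%, 52.6% and 32.8% of the reads of the 5 5p strands in AH-con and 61.3%, 62.3% and 67.4% in AH, a mean of 41.5% ± 10.1 (SD, n = 3) against 63.7% ± 3.25. hsa-miR-30b-5p made up 25.5%, 12.7% and 37.5% in AH-con and 8.14%, 10.4% and 9.91% in AH. For neither strand did the groups overlap, and each gave p = 0.1 in a two-sided exact permutation test, the smallest that 3 against 3 libraries allow (0.333 adjusted over 10 shares). The ratio of hsa-miR-30d-5p to hsa-miR-30b-5p counts was 1.54, 4.14 and 0.876 in AH-con and 7.54, 6.01 and 6.8 in AH, without overlap (mean log2 0.83 ± 1.14 against 2.76 ± 0.164, exact permutation p = 0.1, 0.2 adjusted over 6 ratios). In co-treatment the shares of the other 3 strands overlapped between the groups.

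In pre-treatment the share of hsa-miR-30d-5p was 67.1% and 54.8% in HA-con and 67%, 72% and 66.4% in HA, and that of hsa-miR-30b-5p was 2.23% and 15.6% in HA-con and 4.18%, 5.81% and 4.81% in HA. The groups overlapped for both (exact permutation p = 0.3 and 0.7, two-sided). The share of hsa-miR-30c-5p, at 0.00748% and 0.0266% in HA-con and 0.00343% to 0.00426% in HA, did not overlap, nor did that of hsa-miR-30e-5p, at 25.5% and 24.4% in HA-con and 17.4% to 23.2% in HA (exact permutation p = 0.1 and 0.3). Against its 5p neighbours the counts of hsa-miR-30c-5p were lower in every HA library. The counts of hsa-miR-30e-5p exceeded them 5070 to 5740 times in HA and 919 and 3410 times in HA-con. Those of hsa-miR-30a-5p did so 1360 to 1410 times in HA and 194 and 694 times in HA-con. Each ratio gave an exact permutation p = 0.1, the smallest possible with 3 against 2 libraries.

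**Figure D4:**
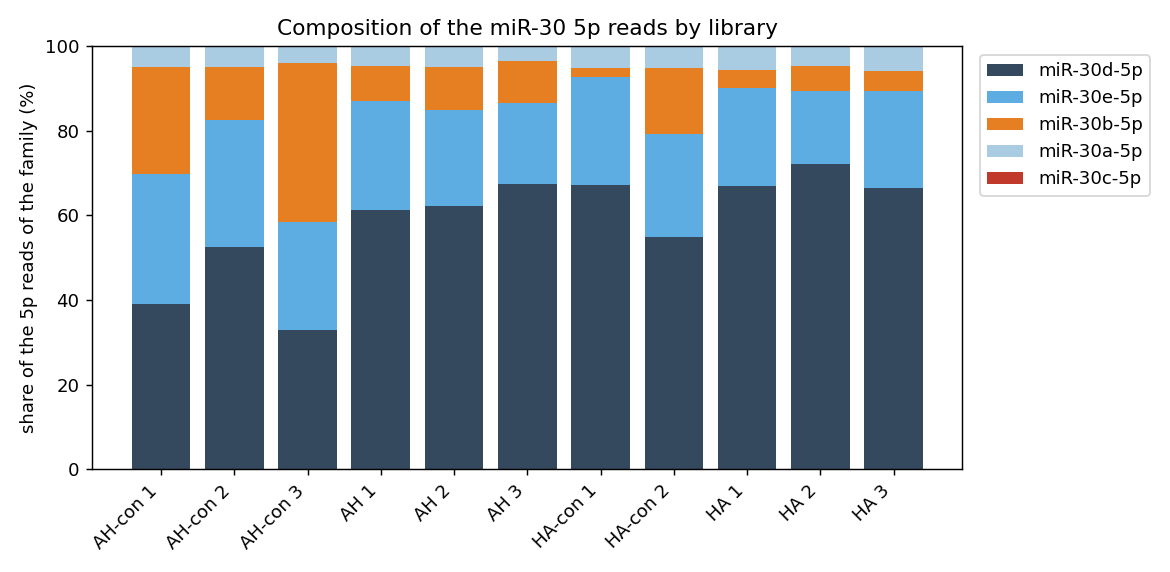
Stacked bars give the share of each 5p strand (%) in the reads of the 5 5p strands for each of the 11 libraries. hsa-miR-30b-5p takes 12.7% to 37.5% in the AH-con libraries and 15.6% in HA-con 2, and 2.23% to 10.4% in the other 7, while hsa-miR-30c-5p is too rare to be seen (at most 0.0587%).

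The arms of a hairpin are cut from the same precursor, so the ratio of their counts within a library is free of scaling. The miR-30d hairpin gave 83.4, 122 and 51 5p counts per 3p count in AH-con and 203, 243 and 194 in AH. The treated libraries were all higher, with a mean log2 ratio of 7.73 ± 0.172 (SD, n = 3) against 6.33 ± 0.631, a difference of 1.40 (two-sided exact permutation p = 0.1, the smallest possible, 0.6 adjusted over 6 ratios). In HA the same ratio was 213, 212 and 197, against 428 and 202 in HA-con, and the groups overlapped (difference -0.51, exact permutation p = 0.3).

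The arms of the sister hairpins were far closer in abundance. miR-30a gave 1.7 to 3.89 5p counts per 3p count in AH-con and 2.34 to 6.54 in AH, and miR-30e 2.56 to 4.8 and 2.71 to 6.18. Their groups overlapped in both regimens (log2 differences of 0.45 and 0.20 in co-treatment and 0.20 and -0.44 in pre-treatment, exact permutation p between 0.5 and 0.8). HA-con 1 had the highest 5p to 3p ratio of all 11 libraries for miR-30a (12.1), miR-30d (428) and miR-30e (12.4). For miR-30b it had the lowest of all 11 (56.5).

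**Figure D5:**
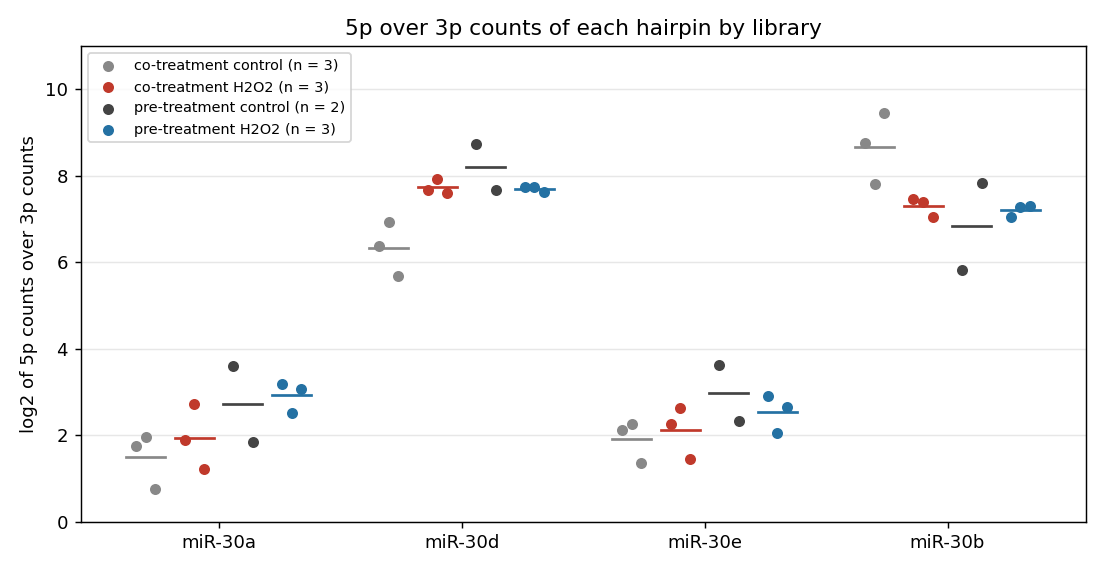
log2 of 5p counts over 3p counts in each library for the miR-30a, miR-30d, miR-30e and miR-30b hairpins, where points are libraries and lines are group means. For miR-30d the 3 AH libraries (mean 7.73) sit above the 3 AH-con libraries (mean 6.33), and for miR-30b they sit below them (7.30 and 8.67).

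The level of hsa-miR-30c-5p stood apart from its hairpins' other strands. In every library it had fewer counts than hsa-miR-30c-1-3p and hsa-miR-30c-2-3p together, with a ratio of 0.0159 (HA 2) to 0.261 (AH-con 1), and its total over the 11 libraries was 470 counts. Other miRNAs from more than 1 hairpin varied. hsa-miR-26a-5p (2 hairpins) had 1683 counts over all libraries and hsa-miR-26b-5p (1 hairpin) 2253078, and hsa-miR-29b-3p (2 hairpins) had 273 and hsa-miR-29a-3p (1 hairpin) 303883. In the let-7 list hsa-let-7a-5p (3 hairpins) and hsa-let-7f-5p (2 hairpins) had 86655 and 87295 counts, close to hsa-miR-98-5p (1 hairpin, 86110), while the other 6, each from 1 hairpin, had 267887 to 5217085. Among the listed markers, hsa-miR-128-3p, hsa-miR-7-5p, hsa-miR-218-5p and hsa-miR-133a-3p, with 2 hairpins each, had 133911, 37794, 6186 and 0 counts. hsa-miR-9-5p, with 3 hairpins, had 317. Over all matched miRNAs, 6.62% of 136 with several hairpins and 7.48% of 2126 with 1 hairpin exceeded 10000 counts. How reads that fit several hairpins were counted is not given in the sources used here, and its part in the level of hsa-miR-30c-5p was not tested.

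Profiles over the 11 libraries, centred within each regimen, were compared by the root mean square difference of log2 CPM, as a description. The nearest miRNA to hsa-miR-30a-5p among 403 compared was hsa-miR-30e-5p (0.165), and the reverse held too, against medians of 0.533 and 0.542 over all those compared. Among the 5p strands with a matched sequence, these are the pair 1 base apart. The 5p strands of miR-30b and miR-30d had no matched sequence and were not compared in this way. hsa-miR-30a-3p was nearest to hsa-miR-30e-3p (0.173), while hsa-miR-30e-3p was nearest to hsa-miR-10b-3p (0.114), with hsa-miR-30a-3p in place 4. The strands of the miR-30d hairpin had other neighbours, hsa-miR-99b-3p for hsa-miR-30d-5p (0.156) and hsa-miR-140-5p for hsa-miR-30d-3p (0.0975). hsa-miR-30b-5p was nearest to hsa-let-7f-2-3p (0.171), and hsa-miR-30c-5p to hsa-miR-130a-5p (0.341), with its nearest relative, hsa-miR-30b-5p, in place 23 (0.616).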

How the data were processed

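Small RNA libraries (QIAseq miRNA kit, Illumina NextSeq) of 11 samples were grouped by their labels. The authors used Cutadapt 2.10 for trimming, Bowtie2 2.4.1 for alignment to hg19 and htseq-count 0.7.2 for counting, and deposited raw counts per mature miRNA. The tables of the authors' own edgeR results (log2 fold changes, CPM, p-values and FDR) were not used. Use of molecular identifiers is not given in the sources used here, so limits cover counting error only (3 counts correspond to 0.336 to 0.561 CPM).

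After the study's methods, the exact test of edgeR 4.0.16 (R 4.3.3) compared H2O2 with control in each experiment, with TMM scaling per experiment, and called miRNAs with an FDR under 0.05 whose log2FC exceeded 0.6 in size. Tested miRNAs passed a CPM of 0.936 in 3 or more co-treatment libraries, or of 0.721 in 2 or more pre-treatment libraries, each worth 5 counts in the smallest library. SE came from the quasi-likelihood fit. Printed levels use TMM over all 11 libraries and can order close libraries differently from the tests. Ratios and shares of raw counts were compared by exact permutation tests. DESeq2 1.42.0, other scalings and filters, a replicate block and left-out libraries were tried as alternatives, and scripts were tested on simulated data. The named miRNAs are the 8 members, the 3 other 3p arms, the most alike miRNA of each member (mean CPM of at least 10) and the let-7, miR-26 and miR-29 lists. Members and lists were chosen with earlier results of these data known. Coordinates are from GRCh37, and sequences from RefSeq.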

Additional observations from a re-analysis of the deposited data

Results flagged for a closer look

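The response of hsa-miR-30d-3p to H2O2 differed between the regimens by 1.76 on the log2 scale (pre-treatment minus co-treatment, quasi-likelihood test of edgeR over all 11 libraries, adjusted p = 0.00933). The strand was lower in 3 of 3 AH libraries than in every AH-con library. It was higher in 3 of 3 HA libraries than in both HA-con libraries. Of all miRNAs tested, 41.6% in co-treatment and 46.0% in pre-treatment had groups that did not overlap. Within each regimen, it passed the edgeR exact test in co-treatment (adjusted p = 0.0121) and not in pre-treatment (adjusted p = 0.201). The co-treatment call was lost without AH-con 1, AH-con 3, AH 1 or AH 3.

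The response of hsa-miR-30c-2-3p, which is not among the 8 members, differed in the opposite direction, by -1.33 (quasi-likelihood test, adjusted p = 0.0278). Its CPM was 16.8, 21.7 and 20.3 in AH-con, 30.8, 26.9 and 26.1 in AH, 35.2 and 54.7 in HA-con, and 22.2, 27.5 and 26.7 in HA. Without HA-con 2, which leaves a lone control, the difference was -0.97. By the same test it missed the threshold without AH-con 1 (-1.22, adjusted p = 0.0681), AH 1 (-1.24, adjusted p = 0.069), HA 1 (-1.24, adjusted p = 0.0743), HA 2 (-1.38, adjusted p = 0.0589) or HA 3 (-1.37, adjusted p = 0.0577). Regimen and batch cannot be told apart for either strand, and the cause was not tested.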

How the results depend on the processing

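Depth limits hsa-miR-30c-5p most, at 9 to 124 counts a library. With 1 control left out of pre-treatment, the lone control is assumed to vary like the H2O2 libraries. Where a cause of a change is not named below, it was not tested. The quasi-likelihood fit of all 11 libraries called 0 members and 84 miRNAs in co-treatment. In pre-treatment the quasi-likelihood test called 0 members and 17 miRNAs, and testing without a low-count filter, over 1519 miRNAs, called 0 members and 61 miRNAs. hsa-miR-30d-3p also missed the threshold in co-treatment without the filter (adjusted p = 0.0612, edgeR exact test). Libraries with the same replicate number did not deviate together in co-treatment (correlations 0.0712, -0.207 and -0.27). In pre-treatment (0.369 and -0.0309) the deviations of the 2 controls mirror each other, so this check cannot decide whether the numbers pair libraries there. With the replicate block the quasi-likelihood test called 2 members and 111 miRNAs in co-treatment and 0 members and 15 miRNAs in pre-treatment. By the same test with the block, 0 members differed between regimens (hsa-miR-30d-3p 1.72, adjusted p = 0.0514), and the share of all miRNAs that did was not taken. The correction for GC content was not run, because 5 of 8 members (62.5%) had a sequence, which makes that check void. Library-size scaling called 50.5% of the changed miRNAs as higher in co-treatment (40.6% with TMM), and 42.6% in pre-treatment (35.3%). The filter applied in all libraries gave 56.9% in co-treatment, and 4 members called there.

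Leaving out each library in turn gave 1 to 5 members and 107 (without AH-con 3) to 274 miRNAs called in co-treatment, with 109 without AH-con 1, 132 without AH 1 and 108 without AH 3. In pre-treatment it gave 0 (any HA library left out) to 4 members (either HA-con library left out) and 9 (without HA 2) to 508 miRNAs (without HA-con 2), with 300 without HA-con 1, 13 without HA 1 and 16 without HA 3. The test between regimens without an HA-con library would rest on a lone control, so its outcome is not given. With a library of AH-con, AH or HA left out, hsa-miR-30d-3p alone of the members differed between regimens. The share of all miRNAs passing was not taken for these refits, and it was 27.3% of 945 in the main fit. In pre-treatment the 5p over 3p log2 differences ran from -0.68 to 1.07 for miR-30a, -1.05 to 0.0351 for miR-30d, -1.10 to 0.21 for miR-30e and -0.63 to 1.38 for miR-30b. The differences in share ran from -10.6 to 2.71 percentage points for hsa-miR-30b-5p, -0.0227 to -0.00357 for hsa-miR-30c-5p and 1.38 to 13.7 for hsa-miR-30d-5p. Those of the log2 ratios ran from -1.11 to 1.99 for hsa-miR-30d-5p over hsa-miR-30b-5p, 0.66 to 2.55 for hsa-miR-30e-5p over hsa-miR-30c-5p and 1.00 to 2.83 for hsa-miR-30a-5p over hsa-miR-30c-5p. Each of these extremes came from leaving out an HA-con library.

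Signs turned for some members that were not called. In co-treatment hsa-miR-30a-5p was at 0.0593 with the filter in all libraries and ran from -0.24 to 0.17 with a library left out (above 0 without AH 3). In pre-treatment hsa-miR-30e-5p was at 0.0167 with library-size scaling, 0.14 without a filter and 0.0233 in the fit of all 11 libraries, and ran from -0.11 to 0.23 with a library left out (above 0 without HA-con 1, HA-con 2 or HA 2). hsa-miR-30a-3p was at 0.0685 with the replicate block. Leaving out HA-con 1 or HA-con 2 gave the ends of the ranges of hsa-miR-30a-3p (-0.71 to 1.18), hsa-miR-30b-5p (-1.37 to 1.59) and hsa-miR-30e-3p (-0.13 to 1.27) in pre-treatment. The difference between regimens ran from -0.0095 (without AH 3) to 0.56 for hsa-miR-30a-5p, from -0.96 to 0.80 for hsa-miR-30c-5p (above 0 without AH-con 2, at 0.02, or HA-con 2), from -0.41 to 0.0428 (without HA-con 1) for hsa-miR-30d-5p, and from -0.0718 (without HA-con 1) to 1.599 for hsa-miR-30a-3p.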

Other observations

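2 further ratios were chosen after their values were seen. The miR-30b hairpin gave 435, 225 and 694 5p counts per 3p count in AH-con and 176, 168 and 133 in AH. The treated libraries were all lower (log2 difference -1.37, two-sided exact permutation p = 0.1, the smallest possible, 0.2 adjusted over 4 ratios), the opposite direction to the miR-30d hairpin. In pre-treatment it gave 56.5 and 227 in HA-con and 132, 156 and 156 in HA, which overlapped. hsa-miR-30b-5p exceeded hsa-miR-30c-5p 501, 582 and 638 times in AH-con and 514, 820 and 435 times in AH, with overlap (log2 difference -0.01, exact permutation p = 1). In HA it did so 1040, 1690 and 1130 times, against 298 and 585 times in HA-con, without overlap (log2 difference 1.59, exact permutation p = 0.1, 0.2 adjusted over 4 ratios).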
